A study of Mus musculus with 2 samples.

Results

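The Hox genes of the mouse were measured in whole embryonic stomach. They were taken as every protein-coding gene whose GENCODE M21 symbol is Hoxa, Hoxb, Hoxc or Hoxd followed by a number, which gave 39 of the 43346 genes in the tables, or 39 of 21474 protein-coding genes. The study sequenced total RNA from stomachs of B6NCrl embryos at embryonic day 15.5, with both sexes mixed, in 1 group of 2 libraries. Replicate 1 was a pool of 78 embryos and replicate 2 a pool of 62. Both libraries were made from 10 ng of RNA longer than 200 nucleotides with ERCC spike-in RNA added, and no genotype, treatment or other stage was included. All values therefore describe this organ at this stage, and the comparison within it is the one between the 2 pools.

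Hox genes encode homeodomain transcription factors that give cells their position along the head-to-tail axis. In mammals they lie in 4 clusters, and genes at matching places in different clusters, which share a number, form a paralog group. Low-numbered genes sit at the 3′ end of each cluster and are switched on early and far forward in the embryo, while high-numbered genes sit at the 5′ end and are switched on later and further back. In the gut the staggered front borders of Hox expression lie mainly in the mesenchyme, and Hoxa5 is known for its part in patterning the stomach mesenchyme and epithelium.

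The 4 clusters lie on 4 chromosomes of mm10. HoxA spans 105.3 kb of chromosome 6 on the minus strand and holds 11 genes. HoxB spans 173.9 kb of chromosome 11 (96194316 to 96368256, plus strand) and holds 10 genes. HoxC spans 115.8 kb of chromosome 15 (102921103 to 103036852, plus strand), and HoxD spans 96.8 kb of chromosome 2 (74668310 to 74765142, plus strand), each with 9 genes.

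Of the 39 genes, 20 (51.3%) reached 1 TPM in both libraries and were called detected, against 64.5% of all protein-coding genes. TPM gives a gene's share of all transcripts after division by transcript length, so levels of different genes are compared on it. No Hox gene was abundant. The highest by gene total, Hoxb2, reached 16.7 TPM in replicate 1 against 17.1 in replicate 2, and 51.3% and 51.1% of the detected protein-coding genes stood above it. Detected Hox genes had a median of 7.02 and 5.89 TPM, against 17.5 and 17.9 TPM for all detected protein-coding genes. All 39 together summed to 160.9 and 142.9 TPM, from 9130 and 8169 counts of the 43209506 and 44257493 on genes. In a whole organ, a lower level can come from fewer cells that express a gene or from less RNA per cell, and these cannot be told apart here.

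The windows upstream of 4 of these genes are shown because their levels mark the ends of the pattern described next: Hoxa2 and Hoxa5 were among the higher genes and held up in both pools, while Hoxd10 and Hoxd11 differed most between the pools. Each is the 250 bases before a RefSeq start site in GRCm38.p6, the build the files call mm10, written 5′ to 3′ on the gene's strand. Capitals mark every match to 6 short motifs, searched on both strands. The TATA box was searched as TATAAA, the CCAAT box by the letters of its name, a joint PBX-HOX site as TGATTNAT, a MEIS site as TGACAG and a CDX site as TTTATG. A paired site for retinoic acid receptors was searched as AGGTCA repeated after a gap of 5 bases. In Hoxa2 the MEIS match runs straight into a CCAAT match.
Hoxa2, chr6:52164832-52165081, minus strand: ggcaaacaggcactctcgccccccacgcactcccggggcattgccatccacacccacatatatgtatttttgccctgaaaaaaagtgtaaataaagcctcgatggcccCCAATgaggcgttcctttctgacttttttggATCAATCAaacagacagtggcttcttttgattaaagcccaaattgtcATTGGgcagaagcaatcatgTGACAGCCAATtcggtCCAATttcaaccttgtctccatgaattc
Hoxa5, chr6:52204588-52204837, minus strand: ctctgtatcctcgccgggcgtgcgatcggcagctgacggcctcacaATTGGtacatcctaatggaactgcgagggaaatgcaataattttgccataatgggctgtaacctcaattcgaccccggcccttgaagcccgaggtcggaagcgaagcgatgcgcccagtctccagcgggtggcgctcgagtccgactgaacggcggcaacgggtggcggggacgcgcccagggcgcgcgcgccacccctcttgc
Hoxd10, chr2:74691641-74691890, plus strand: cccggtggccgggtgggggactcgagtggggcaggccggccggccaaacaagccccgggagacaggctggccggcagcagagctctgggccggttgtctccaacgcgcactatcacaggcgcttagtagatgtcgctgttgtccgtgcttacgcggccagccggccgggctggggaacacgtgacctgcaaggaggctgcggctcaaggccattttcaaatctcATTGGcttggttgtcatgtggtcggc
Hoxd11, chr2:74682073-74682322, plus strand, the start site of its coding transcript: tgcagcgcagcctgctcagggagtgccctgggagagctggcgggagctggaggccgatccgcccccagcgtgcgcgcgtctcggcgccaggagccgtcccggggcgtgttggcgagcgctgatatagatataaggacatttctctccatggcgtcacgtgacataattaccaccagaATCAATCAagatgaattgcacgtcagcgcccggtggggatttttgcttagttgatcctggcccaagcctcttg

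The PBX-HOX letters, read as ATCAATCA on the gene's strand, began 111 bases before the start of Hoxa2 and 73 bases before that of Hoxd11. These were the 2 matches among the 24 Hox windows of 22 genes found in RefSeq's table, or 8.33% of windows against 2.82% of all 32851 windows of that length. The CCAAT letters were in 14 Hox windows, or 58.3% against 33.8% of all. CDX letters were in 5 Hox windows (20.8% against 10.8%), TATA letters in 4 (16.7% against 12.4%), MEIS letters in 2 (8.33% against 15.9%) and the paired retinoic acid receptor site in 0 (against 0.0091%). The median Hox window had 58.6% G and C against 52.4% for all windows, and its ratio of observed to expected CpG was 0.721 against 0.373. These are matches of letters, counted without a test, and a match is not a shown binding site.

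Read by paralog group, levels were highest in group 5 and lower towards group 13. The summed level of group 5 was 43.8 and 42.1 TPM (43.0 ± 1.22, SD, n = 2), which was 28.4 ± 1.57% of all Hox TPM. Groups 2, 3 and 4 came next, at 25.8 ± 2.14, 21.6 ± 0.113 and 21.1 ± 0.537 TPM (SD, n = 2), and the order of groups 3 and 4 does not exceed the spread of the libraries. Groups 6 and 7 summed to 11.9 ± 3.06 and 16.5 ± 4.68 TPM, and no group from 8 onward passed 5 TPM in its mean. Groups 4 to 8 held 65.2% and 62.6% of the Hox TPM, and groups 9 to 13 held 5.58% and 1.80%. In these blocks, 13 of 15 and 1 of 16 genes were detected.

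**Figure D1:**
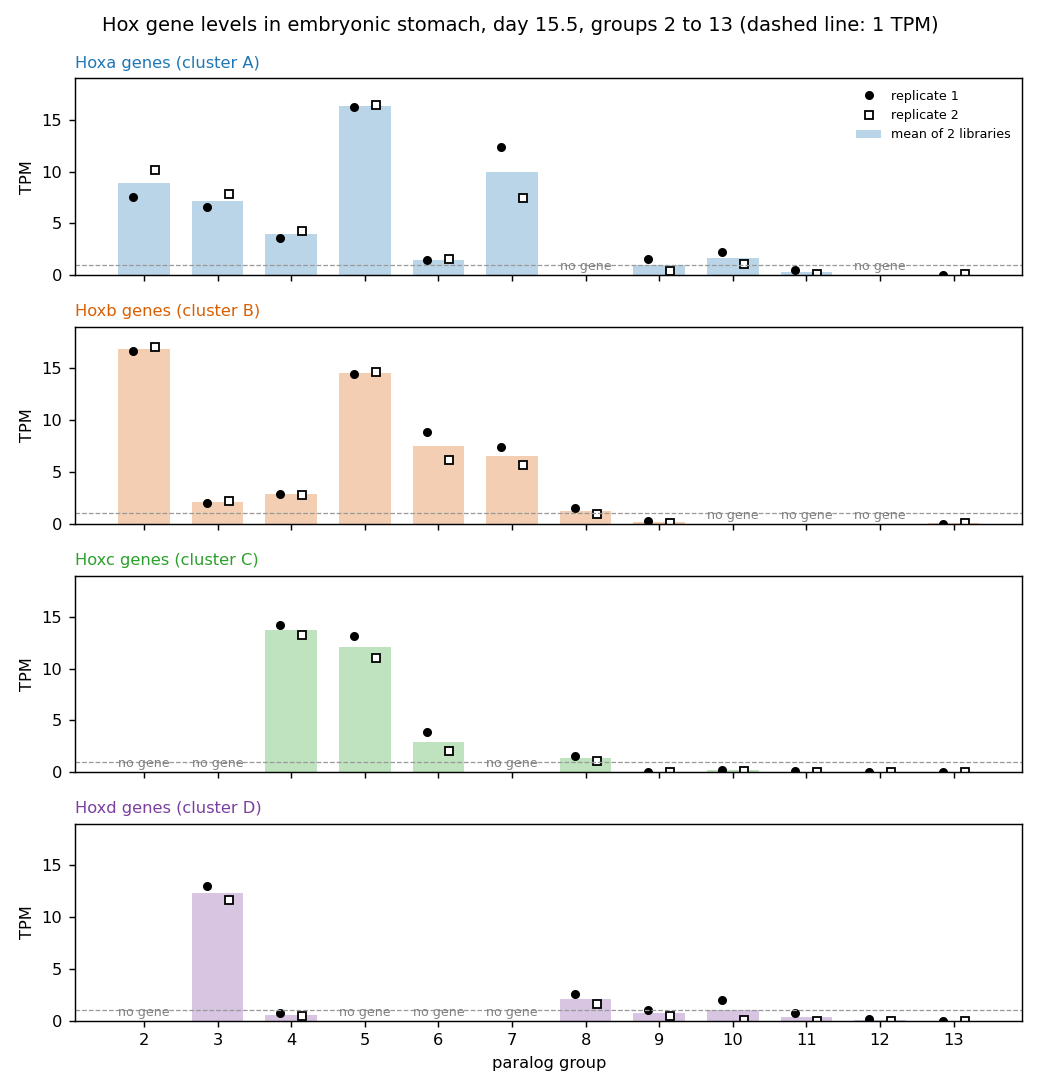
TPM of Hox genes by paralog group for groups 2 to 13, 1 panel per cluster, with filled circles for replicate 1, open squares for replicate 2 and bars for their mean. All mean levels above 5 TPM lie in groups 2 to 7, and no point beyond group 10 reaches the dashed line at 1 TPM.

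Hoxb1, which patterns the hindbrain, was at 0.02 and 0.08 TPM, with replicate 1 given first here and below, and rested on 1 and 5 counts. Hoxd1 was at 0.11 TPM in both libraries, resting on 6 counts in each. Neither was detected.

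In group 2, Hoxb2 at 16.7 and 17.1 TPM stood above Hoxa2 at 7.58 and 10.2 TPM in both libraries. Hoxa2 is best known for shaping the second pharyngeal arch. HoxC and HoxD have no gene in this group.

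In group 3, Hoxd3 read highest at 13.0 and 11.7 TPM, ahead of Hoxa3 at 6.58 and 7.84 TPM. Hoxb3 followed at 1.98 and 2.17 TPM. That order holds for gene totals in both libraries, but most of the Hoxd3 signal lay on a transcript annotated as a retained intron, as described with the transcripts below.

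One gene carried most of group 4. Hoxc4, the lowest-numbered gene of HoxC, was at 14.2 and 13.2 TPM. Its paralog Hoxa4 was at 3.57 and 4.29 TPM, and Hoxb4 at 2.91 and 2.77 TPM. Hoxd4 missed the detection level at 0.77 and 0.43 TPM.

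Group 5 was the one in which every paralog was high. Hoxa5 stood at 16.2 and 16.4 TPM, Hoxb5 at 14.4 and 14.6 TPM, and Hoxc5 at 13.2 and 11.1 TPM. The order of the 3 genes was the same in both libraries, and Hoxa5 and Hoxb5 were almost level between the pools. Hoxb5 is also known for its role in the neural crest cells that form the enteric nervous system.

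From group 6 onward replicate 2 tended to read lower. Hoxb6 was at 8.81 and 6.11 TPM, Hoxc6 at 3.84 and 2.09 TPM, and the low Hoxa6 at 1.42 and 1.54 TPM. Hoxa6 was thus the exception in its group. In group 7, Hoxa7 was at 12.4 and 7.50 TPM and Hoxb7 at 7.45 and 5.68 TPM. In group 8, Hoxd8 was at 2.63 and 1.59 TPM. Its paralog Hoxc8 was at 1.55 and 1.13 TPM. Hoxb8, at 1.55 and 0.94 TPM, was detected in replicate 1 alone.

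Groups 9 and 10, relatives of the Drosophila gene Abdominal-B together with groups 11 to 13, sat at the edge of detection in replicate 1 and mostly below it in replicate 2. Hoxa9 was at 1.59 and 0.40 TPM and Hoxd9 at 1.07 and 0.49 TPM, both detected in replicate 1 alone. Hoxb9 was at 0.29 and 0.11 TPM, and Hoxc9 at 0.05 and 0.03 TPM. All 4 genes of group 9 read lower in replicate 2. Hoxa10, which like Hoxa11 is needed for the reproductive tract, was the highest-numbered gene detected in both libraries, at 2.20 and 1.04 TPM. Hoxd10 was at 2.00 and 0.08 TPM, detected in replicate 1 alone, while Hoxc10 was at 0.25 and 0.09 TPM.

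Groups 11 to 13, which act in the limb, kidney, hindgut and genital region, were below 1 TPM throughout. Hoxd11 was at 0.75 TPM in replicate 1 with 0 counts in replicate 2, and Hoxa11 was at 0.49 and 0.15 TPM. Hoxc11 at 0.12 TPM and Hoxd12 at 0.15 TPM in replicate 1 also had 0 counts in replicate 2. In group 13, Hoxa13 was at 0.01 and 0.12 TPM, Hoxb13 at 0 and 0.05 TPM, and Hoxd13 at 0 and 0.01 TPM, all on 5 counts or fewer. Hoxc12 and Hoxc13 had 0 counts in both libraries. A count of 0 in these libraries allows up to 3 counts, so absence was not shown.

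Across clusters, HoxA and HoxB gave 34.4 ± 2.02% and 34.2 ± 0.783% of the Hox TPM (SD, n = 2), closer than the spread of the libraries. HoxC gave 20.0 ± 0.935% and HoxD 11.4 ± 1.87%. Detected genes numbered 6 of 10 in HoxB, 4 of 9 in HoxC and 2 of 9 in HoxD. Without Hoxd3, the HoxD cluster held a single detected gene, Hoxd8.

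The 2 pools differed in a graded way along the paralog groups. From group 2 to group 11 the ratio of summed counts, replicate 2 over replicate 1, went down almost step by step. On the log2 scale it was 0.14 for group 2, 0.01 for group 3, -0.11 for group 4 and -0.17 for group 5. It was -0.59, -0.65 and -0.65 for groups 6, 7 and 8, and -1.26, -1.92 and -3.49 for groups 9, 10 and 11. Single genes carried several of these steps. In group 5, Hoxc5 was at -0.44 but Hoxa5 and Hoxb5 at -0.02 and -0.03. From group 9 to group 10 the ratio rose in HoxA (-1.33 to -1.11). It fell in HoxD (-1.14 to -4.61) and, on 14 counts or fewer per library, in HoxC (-0.53 to -1.44). In group 11, Hoxd11 held 58 of 98 counts in replicate 1 and 0 of 9 in replicate 2. Scaled to the spike-in RNA, all ratios shift by -0.68, which turns the sign of groups 2 and 3 (to -0.54 and -0.67) and leaves the order of the groups. Group 12 had 11 counts against 0, and group 13 ran the other way on 1 count against 9. The 95% counting intervals of groups 5 to 11 lay wholly below 0, and those of group 3 (-0.09 to 0.11) and group 4 (-0.22 to 0.01) included it. Those of group 2 (0.03 to 0.25) and group 13 (0.28 to 8.58) lay above 0, and the spike-in shift of -0.68 leaves neither of them wholly above it. This ordering was seen in the data and then described, and no test was made of it.

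Taken in blocks, groups 4 to 8 had 5777 counts in replicate 1 and 4910 in replicate 2, a log2 ratio of -0.28 (95% interval -0.33 to -0.22). Groups 9 to 13 had 511 and 153 counts, a ratio of -1.78 (-2.05 to -1.52), or 3.44-fold more in replicate 1. HoxD had the lowest ratio, and without its genes the ratio of groups 9 to 13 was -1.24. By cluster it was -1.22 in HoxA, -1.82 in HoxC, -2.79 in HoxD and -0.98 in HoxB, where the interval on 21 and 11 counts included 0 (-2.17 to 0.14). The intervals cover counting error only, and with 1 library per pool they say nothing of how far any 2 such pools would differ.

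**Figure D2:**
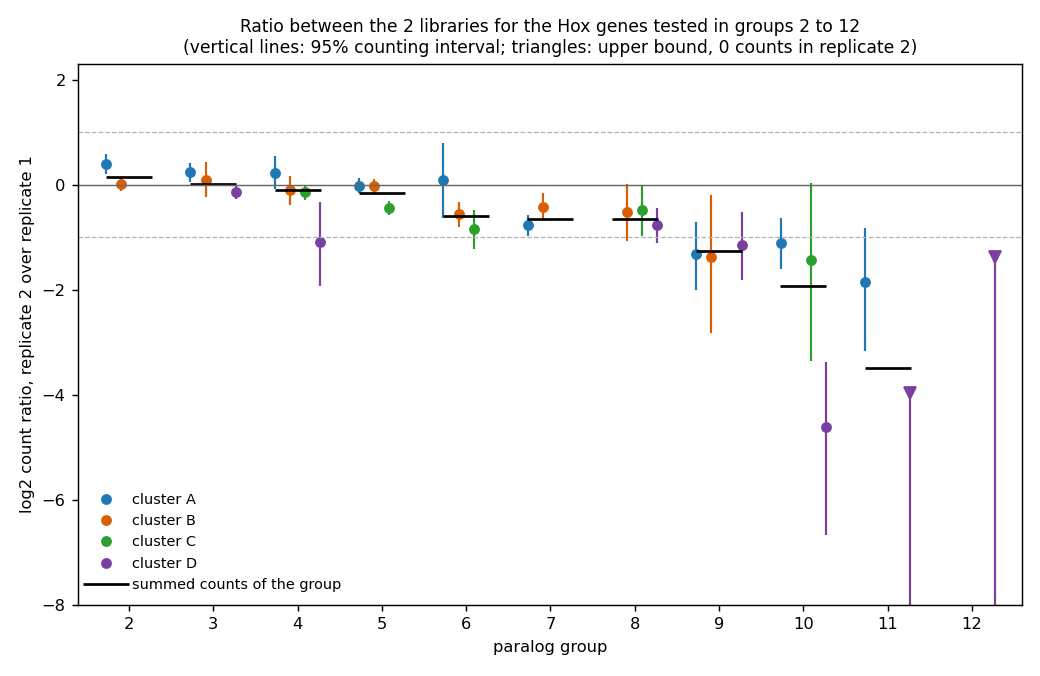
Log2 ratio of counts in replicate 2 over replicate 1 for the Hox genes tested in groups 2 to 12, by paralog group and coloured by cluster, with 95% counting intervals and black bars for the summed counts of a group. Triangles are upper bounds for Hoxd11 and Hoxd12, which had 0 counts in replicate 2. Apart from Hoxd4, the points of groups 2 to 5 lie between -0.44 and 0.39, those of groups 6 to 8 lie below 0 except Hoxa6, and those from group 9 on lie below -1. Spike-in scaling would move every point by -0.68.

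Single genes were compared by an exact binomial test, two-sided, which asks whether these 2 pools differ by more than counting noise. Of the 39 genes, 31 had the 10 counts needed. Their median log2 ratio was -0.48, against -0.003 for all 20918 genes tested, with 24 genes below 0 and 7 above, the latter 7 all below 0 under spike-in scaling. A call needed an adjusted p below 0.05 together with a log2 ratio of 1 or more in size. By this rule 8 Hox genes (25.8%) were lower in replicate 2, where the background was 5.68%, and 0 were higher, where it was 0.784%. A second test, edgeR's exact test with the common dispersion of both libraries (a biological coefficient of variation of 0.197), called 2 lower (6.45%), where the background was 3.07%, and 0 higher, where it was 0.215%. The share by edgeR rests on 2 genes. Its dispersion was taken from the same 2 libraries that it compares, so it holds no separate measure of the spread between pools.

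The called genes were Hoxd4, Hoxa9, Hoxd9, Hoxa10, Hoxd10, Hoxa11, Hoxd11 and Hoxd12. In groups 9 to 13, all 9 genes tested had ratios below 0, the nearest to 0 being -1.11, and 7 of them were called. In groups 4 to 8 it was 1 of 15, and none was called in groups 2 and 3. Hoxb9, Hoxc10, Hoxd10, Hoxa11, Hoxd11 and Hoxd12 had under 10 counts in replicate 2. They thus met the minimum of 10 only through replicate 1, so the finding that all 9 ratios were below 0 is partly set by that minimum. Hoxc9 and Hoxc11, lower in replicate 2, and the group 13 genes with counts, which ran the other way, had too few counts to test.

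Hoxd10 had 106 counts in replicate 1 and 4 in replicate 2, 27.3-fold more in replicate 1 (log2 ratio -4.61, 95% interval -6.67 to -3.37, adjusted p = 7.58e-26 by the exact binomial test). It also passed edgeR's exact test (adjusted p = 7.71e-09). Hoxd11 had 58 counts and 0, at least 19.9-fold more in replicate 1 at a floor of 3 counts in replicate 2 (adjusted p = 7.24e-17 by the exact binomial test and 3e-08 by edgeR). Hoxd12 had 11 counts and 0, at least 3.78-fold more in replicate 1 (adjusted p = 0.00401 by the exact binomial test), and missed the threshold by edgeR (adjusted p = 0.0671).

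These 3 Hox genes follow one another near the 5′ end of HoxD. Gm28309, an annotated transcript that overlaps exons of Hoxd10 and Hoxd11, read low in replicate 2 as well, with 18.0 counts and 1 (log2 ratio -3.67, adjusted p = 0.000374 by the exact binomial test and 0.0205 by edgeR). Its count in replicate 1 (17.97) and that of Hoxd11 (58.03) were fractions, as left when shared reads are divided. Its difference is therefore not separate from that of Hoxd11. On one side of the group Hoxd9 differed less, with 67 counts and 31 (log2 ratio -1.14, interval -1.82 to -0.52). On the other side Hoxd13 had 0 counts and 1. The interval of Hoxd9 and that of Hoxd10 did not overlap.

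The called HoxA genes differed by less. Hoxa9 had 74 counts and 30 (log2 ratio -1.33, adjusted p = 7.31e-05 by the exact binomial test), Hoxa10 had 116 and 55 (-1.11, 1.23e-05) and Hoxa11 had 33 and 9 (-1.86, 0.00107). None of these passed edgeR's exact test, with adjusted p of 0.238, 0.349 and 0.145. Hoxd4, with 44 counts and 21, had a log2 ratio of -1.09 and adjusted p of 0.0161 by the exact binomial test and 0.811 by edgeR.

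Most genes with high counts had ratios nearer 0. Hoxb2 had 835 counts and 867 (log2 ratio 0.01, 95% interval -0.13 to 0.15), and Hoxa5 had 891 and 906 (-0.02, -0.15 to 0.12). Hoxa7 had 523 and 314 counts (-0.78, -0.98 to -0.57), and Hoxc5 had 1076 and 817 (-0.44, -0.57 to -0.31). Both had exact binomial adjusted p below the threshold (4.1e-13 and 7.39e-10) but ratios short of 1, and neither passed edgeR (0.86 and 1). Hoxa2 went the other way, except under spike-in scaling (-0.29), with 370 counts and 499 (0.39, 0.19 to 0.59).

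Markers of several other tissues also differed between the pools by the exact binomial test, whose calls over all genes were 5.68% lower and 0.784% higher. Liver markers were lower in replicate 2 for 4 of 5 genes (summed TPM 1357 and 511), and skeletal muscle markers were higher for 3 of 5 (7.27 and 19.6 TPM). Of 11 stomach markers, 10 were detected, with Barx1 at 142.0 and 166.4 TPM, and 2 were called lower, Gkn1 and Gkn2 (746 and 610 TPM in sum). The median log2 ratio of the 11 was -0.50, near the -0.48 of the Hox genes, with a range from -1.76 (Gkn1) to 0.51 (Gata4). Blood and leukocyte markers had 1 of 5 lower, Gata1 (380 and 335 TPM). Of these called markers, Gkn2 did not pass edgeR's exact test (adjusted p = 0.516), and the others did. The following lists had no gene called. They were markers of intestine (7 of 7 detected, 840 and 1035 TPM), pancreas (6 of 6, 3801 and 4865 TPM), spleen (3 of 3, 31.9 and 27.7 TPM), enteric neurons and glia (5 of 5, 104 and 109 TPM) and mesothelium (3 of 3, 91.9 and 78.2 TPM). Their median log2 ratios were 0.22, 0.44, -0.30, -0.03 and -0.29. All 6 pancreas markers were higher in replicate 2 (0.15 to 0.79), with exact binomial adjusted p of 1.89e-06 or less but ratios short of the size needed. None of the 6 passed edgeR's exact test, and the spike-in shift of -0.68 leaves only Gcg (0.79) above 0.

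Markers of other tissues, several of them sites of high-numbered Hox expression, left little signal. Hindgut markers were detected in 0 of 3 cases (0.70 and 0.52 TPM in sum), and spinal cord markers in 0 of 5 (0.06 and 0.10 TPM, with Olig2 at 0 in both libraries). Kidney markers were detected in 1 of 6 cases (6.55 and 11.9 TPM), nearly all of it Six2, with Umod at 0 in both libraries. Six2 had 352 counts and 708, a log2 ratio of 0.96, just short of the size needed for a call. Its adjusted p was 2.05e-24 by the exact binomial test and 0.384 by edgeR's exact test. Every other kidney marker was below 1 TPM. Lhx1 had 34 counts and 36, Pax8 19 and 11, Slc34a1 4 and 8, and Pax2 2 and 8. Whether the pools held kidney tissue was not tested. Markers of gonad and adrenal had 2 of 5 detected (6.86 and 5.65 TPM), those of cartilage 2 of 4 (5.17 and 7.31 TPM), those of lung 1 of 3 (5.54 and 3.54 TPM) and those of sensory ganglia 2 of 3 matched (6.66 and 8.51 TPM). None of these genes was called. The part of any of these tissues in the Hox difference was not tested.

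Transcript tables gave the share of each gene's TPM on each of 87 annotated Hox transcripts. For 15 genes with at least 100 counts in each library, shares were read, and 10 of them had at least 90% of their TPM on protein-coding transcripts in both libraries. Hoxa2, Hoxa4, Hoxb4 and Hoxa5 have a single transcript. Hoxc4, Hoxb6 and Hoxd8 divided theirs among coding transcripts, and Hoxb7 read 100% on its coding one. Hoxb2 put 93.8% and 92.9% on its coding transcript and Hoxb5 93.6% and 95.4%, with the rest on retained introns (Hoxb2-202 and Hoxb5-202). On coding transcripts alone, Hoxb2 at 15.6 and 15.9 TPM stood below Hoxa5 at 16.2 and 16.4 TPM.

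In Hoxd3 and Hoxa7 the coding transcripts held the smaller part in both libraries. Hoxd3-206, a retained-intron transcript of 2721 bases without a splice (chromosome 2, 74745722 to 74748442), took 70.7% and 80.0% of the TPM of Hoxd3, from 742 and 759 counts. The 5 coding transcripts of Hoxd3 together reached 3.80 and 2.34 TPM. On coding transcripts alone Hoxd3 thus stood below Hoxa3, at 4.85 and 6.25 TPM, the reverse of the order by gene. Exons of Hoxd3 and Hoxd4 overlap on the same strand and with the gene model Gm28230, over 62.4% of the exonic bases of Hoxd3, so the split of counts between these genes is uncertain.

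Hoxa7-205, annotated as a target of nonsense-mediated decay, took 50.8% and 50.5% of the TPM of Hoxa7. Its coding transcripts held 49.2% and 49.5%, led by Hoxa7-203 at 33.9% and 36.6%. By the authors' posterior-mean values the coding share was 52.2% and 53.8%, on the other side of 50%. The share was thus close to even and level between the pools, although the gene itself had fewer counts in replicate 2.

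The remaining 3 genes lay between. Hoxa3 had 73.8% and 79.8% on coding transcripts, with 21.2% and 15.2% on the retained intron Hoxa3-203 and 5.02% and 4.99% on Hoxa3-204. Hoxb3 had 81.2% and 78.6%, with 18.8% and 21.4% on the short Hoxb3-204, which rests on 4 and 5 counts. Hoxc5 had 92.2% and 80.9%, and the processed transcript Hoxc5-202 took 7.81% and 19.1%, on 16.4 and 33.7 counts. No test of transcript shares was made.

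**Figure D3:**
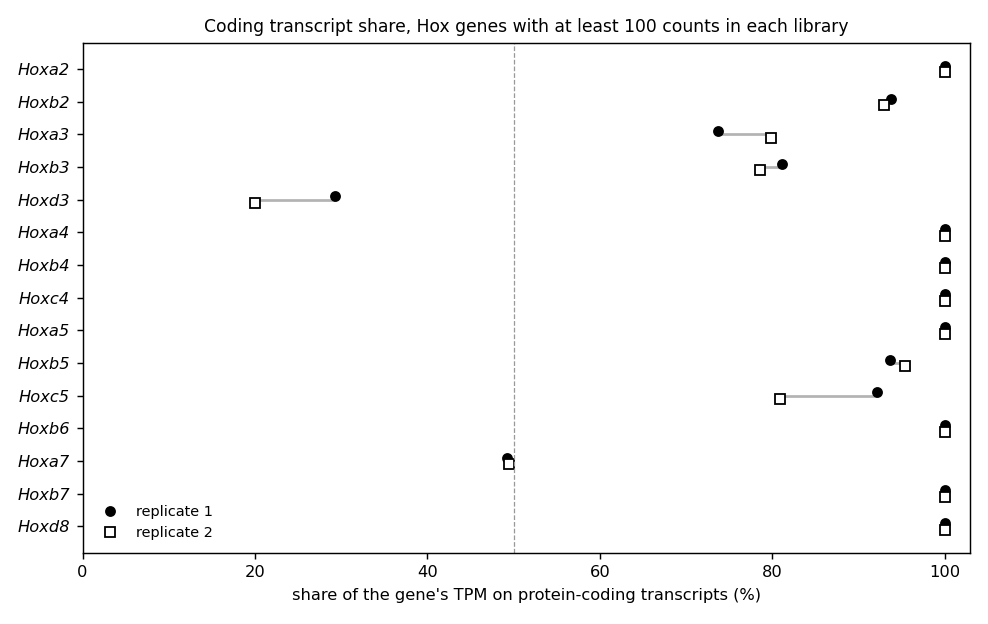
Share of each gene's TPM on protein-coding transcripts, in percent, for the 15 Hox genes with at least 100 counts in each library (filled circles, replicate 1, and open squares, replicate 2). Hoxd3 lies at 29.3% and 20.0%, Hoxa7 just under the dashed line at 50%, and 10 genes lie at 90% or above in both libraries.

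Hoxa10 and Hoxd11 also leaned on noncoding transcripts, below the count limit used above. The former put 52.8% and 64.3% on Hoxa10-203, a processed transcript, from 57.8 and 33.4 counts. The latter put 67.0% on the processed transcript Hoxd11-201 in replicate 1, from 50.3 counts. Counted on coding transcripts alone, 18 Hox genes were detected in place of 20, with Hoxc8 and Hoxa10 dropping below 1 TPM.

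Between the Hox genes, 45 other annotated genes lie inside the cluster spans. Of these, 14 reached 1 TPM in either library and 23 had 0 counts in both, among them all 6 microRNA hairpins, which are shorter than the RNA that was kept, and Hotair, the long noncoding RNA of HoxC. Most of the signal was at the 3′ end of HoxA, where the antisense RNA Hotairm1 was at 26.9 and 29.0 TPM, above every Hox gene.

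Further noncoding genes of HoxA were Hoxaas3 at 8.49 and 10.0 TPM, Hoxaas2 at 6.95 and 9.53 TPM, Gm15050 at 7.01 and 9.25 TPM and Hoxa11os at 1.68 and 0.97 TPM. Gm27477, a 143-base RNA, was at 14.7 and 16.9 TPM on 20 and 23 counts, and Gm27868 at 6.27 and 17.6 TPM on 0.58 and 1.64 counts, too few to read. Both are annotated as shorter than the RNA that was kept. They lie next to or within Hotairm1 on its strand, so the source of their reads is uncertain. The predicted coding gene 5730596B20Rik was at 2.11 and 2.52 TPM. In HoxB, Hoxb3os was at 5.13 and 5.48 TPM, Hoxb5os at 3.0 and 4.61 TPM and the pseudogene Gm11539 at 3.86 and 1.42 TPM. In HoxD, Hoxd3os1 was at 2.98 and 2.14 TPM, Haglr at 1.34 and 2.06 TPM and Gm28309 at 1.11 and 0.06 TPM. HoxC had none at 1 TPM.

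The direction of these neighbours between the pools was mixed. Of 17 with enough counts, 3 were called lower in replicate 2 by the exact binomial test (Gm11539, Gm53 and Gm28309) and 0 higher, where the shares over all genes were 5.68% and 0.784%. Gm11539 and Gm53 did not pass edgeR's exact test (adjusted p = 0.185 and 0.266), and Gm53 rests on 11 counts and 1. Gm28309 shares exonic bases with Hoxd11, so its count is not separate from the Hox counts. Hoxaas2, near Hoxa2, had 437 counts and 600 (log2 ratio 0.41, adjusted p = 3.89e-05 by the exact binomial test, 1 by edgeR's exact test), the same direction as Hoxa2. The spike-in shift of -0.68 puts both below 0. Hotairm1 was level at 208 and 214 counts (-0.001). The 3 called ones lie in the 5′ parts of HoxB and HoxD.

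Strand was not known, so counts of a Hox gene and of an overlapping antisense gene cannot be told apart where exons coincide. Exons of 10 Hox genes overlapped a gene on the opposite strand, over 52.9% of the exonic bases of Hoxb3, 34.98% of Hoxa11, 27.3% of Hoxb2 and 25.4% of Hoxa3. Exons of 9 overlapped another gene on the same strand, and 23 Hox genes had no overlap at all, Hoxa5, Hoxc4, Hoxc6, Hoxd8, Hoxd9, Hoxa10 and Hoxd12 among them.

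Neighbouring coding genes outside the clusters were either below 1 TPM or at 14.3 TPM and above. The even-skipped relatives Evx1 and Evx2, which flank the 5′ ends of HoxA and HoxD, were at 0.03 and 0.05 TPM and at 0 in both libraries. The higher neighbours included Mtx2 beyond the 3′ end of HoxD at 74.3 and 85.7 TPM, and Skap2 beyond the 3′ end of HoxA at 33.8 and 38.5 TPM. Calcoco1 and Smug1 at the sides of HoxC were at 24.3 and 27.2 TPM and at 14.3 and 15.95 TPM. Ttll6 and Skap1 beside HoxB stayed below 1 TPM.

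**Figure D4:**
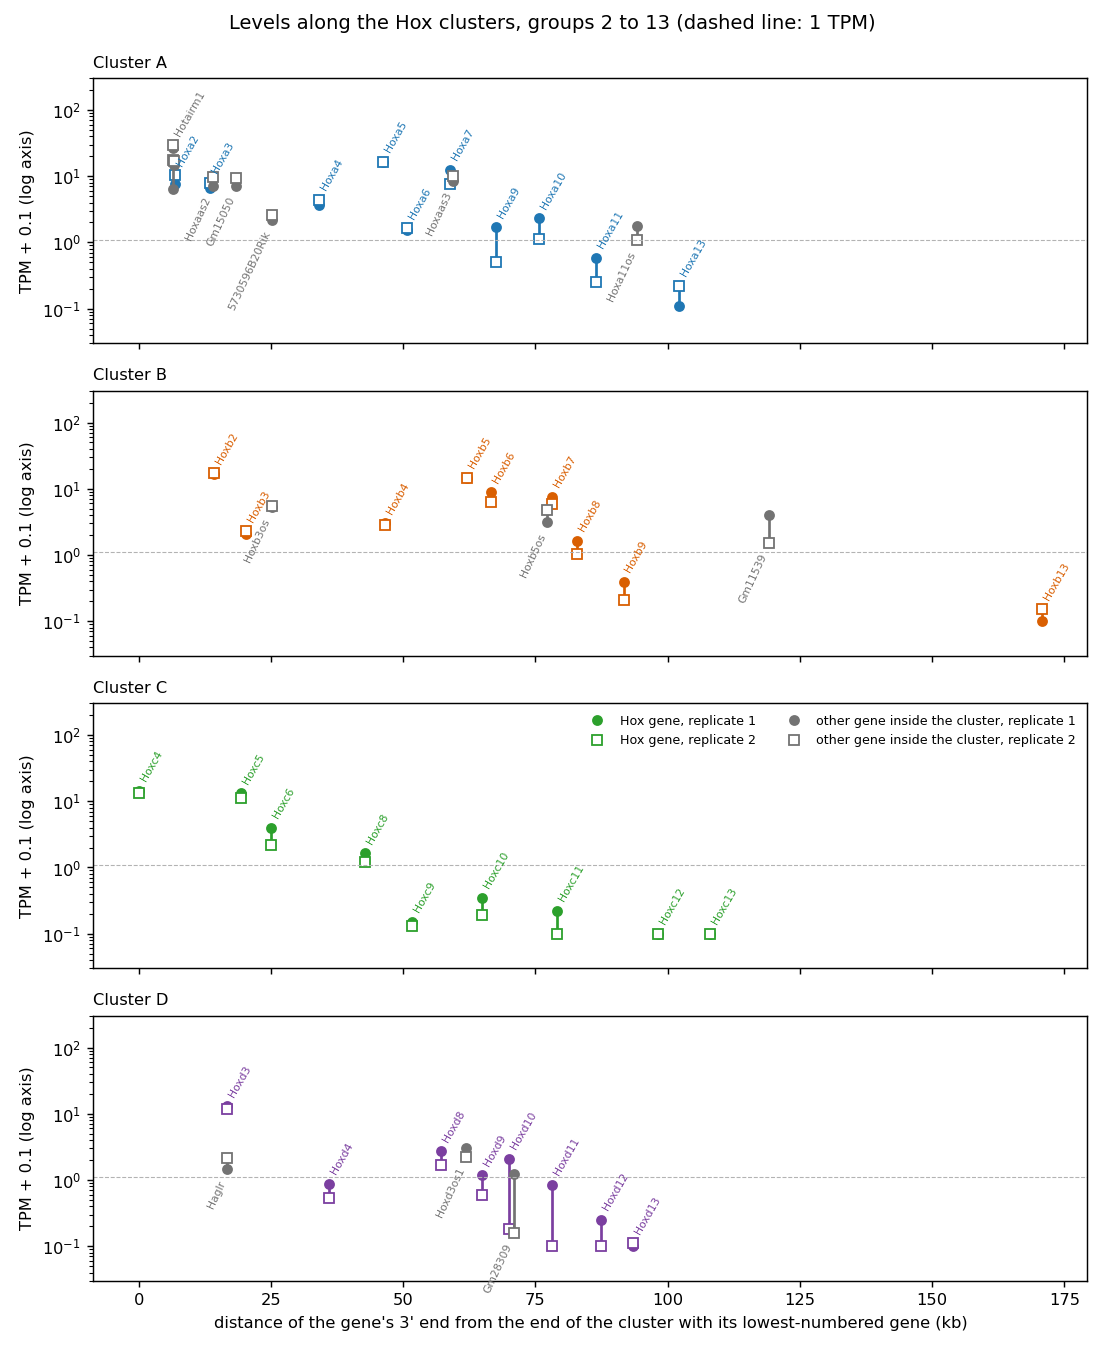
TPM + 0.1 on a log axis against the distance of each gene's 3′ end from the low-numbered end of its cluster in kb, with Hox genes of groups 2 to 13 in colour and other genes at 1 TPM or more in grey (filled circles, replicate 1, and open squares, replicate 2). The short RNAs Gm27477 and Gm27868 beside Hotairm1 carry no name. Levels are lower with distance in HoxC, apart from Hoxc9, the gaps between the libraries widen over Hoxd10, Gm28309 and Hoxd11, and Hotairm1 tops cluster A.

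Hox proteins bind DNA with cofactors of the TALE class, and all 9 of the Pbx, Meis and Pknox genes were detected, at a median of 23.4 and 23.9 TPM. Meis1 was at 114.9 and 122.3 TPM and Meis2 at 43.4 and 47.2 TPM, both above the highest Hox gene. None of the 9 was called different between the pools, where the shares over all genes were 5.68% lower and 0.784% higher. Their median log2 ratio was 0.02 (range -0.54 to 0.26). Pbx3 (0.26) had the lowest adjusted p, 7.84e-07 by the exact binomial test, with a ratio short of the size needed for a call.

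Of 6 ParaHox genes, the sister family of Hox, 3 were detected. They were Cdx1 (13.7 and 13.3 TPM), Cdx2 (6.65 and 7.95 TPM) and Pdx1 (4.52 and 6.15 TPM), with Gsx1, Gsx2 and Cdx4 at 0.05 TPM or less. None was called, where the shares over all genes were 5.68% lower and 0.784% higher. The median log2 ratio of the 3 that could be tested was 0.22. Pdx1 (0.41) had an adjusted p of 1.76e-06 by the exact binomial test, with a ratio short of the size needed. Cdx2, an intestinal regulator that acts upstream of central Hox genes in the embryo, had 444 and 533 counts.

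Regulators of Hox expression were detected almost throughout. Of 12 genes for retinoic acid and other upstream signals, 10 were detected, led by the synthesis enzyme Aldh1a2 at 73.6 and 70.6 TPM, with Rara at 27.9 and 33.4 TPM and Aldh1a1 at 27.8 and 28.3 TPM. Cyp26c1 and the hindbrain regulator Egr2 were below 1 TPM. All 17 Polycomb genes, whose complexes keep Hox genes silent, were detected, led by Ezh2 at 65.3 and 61.9 TPM, Mtf2 at 57.7 and 59.3 TPM and Rnf2 at 54.3 and 56.2 TPM. All 8 Trithorax, H3K27 demethylase and boundary genes were detected as well, led by Ctcf at 90.5 and 87.7 TPM, Ash2l at 66.9 and 74.6 TPM and Men1 at 57.5 and 59.1 TPM. In these 3 lists 0 genes were called in either direction, where the shares over all genes were 5.68% lower and 0.784% higher. The median log2 ratios of the lists were -0.10, 0.09 and 0.05. Their ranges were -0.82 to 0.26, -0.09 to 0.29 and -0.15 to 0.15. The lowest was Cyp26a1, with 310 counts and 181. Its adjusted p was 1.17e-08 by the exact binomial test and 0.801 by edgeR's exact test, with a ratio short of the size needed for a call. Others also had exact binomial adjusted p below the threshold with ratios short of that size. Among them were Rarg (-0.27, 3.61e-08) and Kdm6b (-0.15, 2.23e-05), lower in replicate 2, and Rara (0.22, 1.53e-06) and Ash2l (0.15, 7.84e-07), higher.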

How the data were processed

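Each library came with 2 tables deposited by the authors, of genes and of transcripts, made against mm10 with annotation M4 per the text deposited beside them. The aligner, the quantifier and the strand setting are not given in the sources used here. Per the file headers, each table holds an expected count per feature, in which the authors divided reads that match several features, with TPM and FPKM scaled by effective length, and posterior-mean versions. The percent that each transcript takes of its gene's TPM is also as deposited by the authors. Values with a fraction were rounded to whole numbers for tests, and 10 of 39 Hox genes had such a value (tolerance 0.005).

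Symbols, biotypes and coordinates came from GENCODE M21, matched by gene identifier without its version. Spike-ins were left out of library sizes. The libraries held 43209506 and 44257493 gene counts, and spike-ins took 1.88% and 3.0% of all counts. Library sizes were TMM factors from edgeR 4.0.16 (R 4.3.3) over the genes that reached 10 counts in both libraries together. Ratios used a prior count of 0.5, and a fold against 0 used a floor of 3 counts in that library. Exact Clopper-Pearson intervals at 95% cover counting error only. Exact binomial p-values were adjusted by the Benjamini-Hochberg method over 20918 genes. This test was tested on simulated data for replicate 1 against replicate 2 over 20897 genes, where 199 of 200 genes changed 4-fold were called and 0 others. The simulated counts held counting noise alone, so the 0 says nothing of spread between pools beyond it. The changed genes all had more counts than Hoxd4, Hoxd9, Hoxa11, Hoxd11 and Hoxd12, so recovery at such low counts was not checked. The edgeR exact test was fitted with the common dispersion of both libraries taken as 1 group. With 1 library per pool, p-values compare these pools, not conditions.

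The Hox genes, the lists of cofactors, ParaHox genes, upstream signals, Polycomb and Trithorax genes and tissue markers, and the tests were chosen with earlier results of these data known. Named were the Hox genes, genes inside the clusters at 1 TPM in either library, their nearest coding neighbours, the 3 highest and the undetected members of the Hox-related lists and, for marker lists, the sums and the called genes. The rule for transcripts was 5% of the TPM of a gene with 100 counts in each library, but most coding ones that met it are given only as a sum per gene. Hoxa10-203 and Hoxd11-201, of genes below that count limit, were chosen after their values were seen. Some results are not reported here. Hox protein sequences were not used here. Alternatives were other thresholds, units, scalings and count minimums, coding transcripts alone, either library alone, and the edgeR exact test.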

Additional observations from a re-analysis of the deposited data

How the results depend on the processing

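No paired analysis was possible because the series holds 1 group of 2 libraries. Either library alone gave 20 to 24 detected Hox genes, shares of 33.0 to 35.9% for HoxA, 33.6 to 34.7% for HoxB, 19.3 to 20.7% for HoxC and 10.1 to 12.7% for HoxD, and 1.80 to 5.58% for groups 9 to 13. The ratio between libraries cannot be formed without one of them. At 5 TPM, 11 genes were detected in place of 20, and the other thresholds and units gave 14 to 21. Counts scaled to library totals without the length correction gave 31.8% for HoxA, 31.01% for HoxB, 22.8% for HoxC, 14.4% for HoxD and 61.7% for groups 4 to 8. Coding transcripts alone gave 38.2% for HoxB, 21.9% for HoxC, 5.92% for HoxD and 68.8% for groups 4 to 8. FPKM and posterior-mean TPM moved none of these shares beyond the spread of the libraries.

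DESeq2 1.42.0 size factors, library totals and no count minimum left 8 Hox genes called lower, and a minimum of 50 counts left 6. Spike-in totals gave 18 with a median log2 ratio of -1.16, and edgeR's exact test gave 2. None of these called a Hox gene higher. Among the ratios of named genes, spike-in totals reversed these, to -0.29 for Hoxa2, -0.67 for Hoxb2, -0.45 for Hoxa3, -0.59 for Hoxb3, -0.45 for Hoxa4 and -0.60 for Hoxa6. For groups 9 to 13 the summed ratio of -1.78 was -2.46 with spike-in totals, and, in alternatives added after seeing the data, -1.24 without HoxD and -1.26 without Hoxd10 and Hoxd11. Over Hox genes with whole counts alone, also added later, 6 were called. By posterior means 1 gene in place of 2 had under 50% of its TPM on coding transcripts. Whether TMM or spike-in sizes are nearer to the RNA content of the pools was not tested.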

Other observations

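Other genes, chosen after their values were seen, were lower in replicate 2, with ratios between those of Hoxa11 (-1.86) and Hoxd10 (-4.61). They are among the 1189 of 20918 genes (5.68%) called lower by the exact binomial test. Fabp6, the bile acid carrier of the distal small intestine, had 108 counts in replicate 1 and 8 in replicate 2 (log2 ratio -3.72, adjusted p = 1.22e-22 by the exact binomial test and 4.05e-07 by edgeR's exact test). The brush-border genes Tmigd1 (40 and 7 counts, log2 ratio -2.48) and Sis (32 and 8, -1.98), the noradrenaline enzyme Dbh (146 and 36, -2.05) and the transcription factor Tfap2b (63 and 8, -2.94) were lower as well. All but Sis passed edgeR's exact test (adjusted p = 0.00992 for Tmigd1, 0.11 for Sis, 0.00162 for Dbh and 0.000267 for Tfap2b). The intestine markers of the report did not follow Fabp6, Tmigd1 and Sis. Vil1, also a brush-border gene, had a log2 ratio of 0.32, and the 7 markers had a median of 0.22 (range -0.09 to 0.41), which the spike-in shift of -0.68 turns below 0. Whether the genes chosen here and the 5′ Hox genes come from the same cells was not tested.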
